A study of Homo sapiens with 12 samples.

Results

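The 10 genes described here belong to the tumour necrosis factor (TNF) system and were followed in cultured human kidney tubule cells exposed to TNF-α and to short-chain fatty acids (SCFAs). They were 8 ligands (TNF, LTA, LTB, TNFSF9, TNFSF10, TNFSF12, TNFSF15 and TNFSF13B) and 2 receptors (CD40 and LTBR). They were chosen by symbol, and each symbol matched 1 of the 58278 genes listed in every library. HK2 is an immortalised human proximal tubule epithelial line, and RNA was sequenced in 12 libraries, 2 biological replicates in each of 6 groups. Ctrl cells had no stimulation. TN cells received TNF-α at 5 ng/mL for 3 h. PRTN cells had propionate at 15 mM, and BUTN cells butyrate at 3 mM, for 24 h before that same TNF-α stimulation, whereas TNPR cells (propionate) and TNBU cells (butyrate) had the same doses for 24 h after it. The timings therefore also differed in the time from TNF-α to harvest. Groups given an SCFA without TNF-α, or kept for the same time after TNF-α without an SCFA, were not analysed here. All groups came from a single established line kept in serum-supplemented medium, so the data describe that line and not renal tissue. A general treatment note in the labels names thapsigargin and JQ1, which no sample description mentions, and groups were taken from the descriptions of the samples.

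TNF superfamily ligands are mostly membrane proteins that act as trimers, some of them after being shed from the cell surface. They bind receptors of the TNF receptor superfamily, which either recruit TRAF adaptors and activate NF-κB or carry a death domain. TNF and the lymphotoxins LTA and LTB are encoded side by side in the major histocompatibility complex; LTA and LTB proteins assemble into the heterotrimer that binds LTBR. CD40 and LTBR feed the non-canonical NF-κB route through MAP3K14, NFKB2 and RELB. In the kidney, tubule cells both respond to TNF-α and can themselves produce cytokines of this family during inflammation. The stimulus here was added TNF-α protein, while the measurement was the cells' own TNF messenger RNA.

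The promoters of TNF, LTB, TNFSF9 and TNFSF10 are shown because TNF and LTB are textbook NF-κB targets that moved in opposite directions with the SCFAs, and because TNFSF9 rose and TNFSF10 fell with them. Each line gives the 250 bases before the RefSeq start in GRCh38.p14, read 5′ to 3′ on the strand of the gene, in lower case. Capitals mark matches on either strand of 2 κB patterns of 10 bases. The narrow pattern reads GGGA, then any base, then TTTCC, and the wide pattern reads GGG, then any 5 bases, then CC, so every match of the former is also one of the latter. TNF lies on the plus strand (chr6:31575315-31575564), LTB on the minus strand (chr6:31582426-31582675), TNFSF9 on the plus strand (chr19:6530776-6531025) and TNFSF10 on the minus strand (chr3:172523431-172523680).
TNF: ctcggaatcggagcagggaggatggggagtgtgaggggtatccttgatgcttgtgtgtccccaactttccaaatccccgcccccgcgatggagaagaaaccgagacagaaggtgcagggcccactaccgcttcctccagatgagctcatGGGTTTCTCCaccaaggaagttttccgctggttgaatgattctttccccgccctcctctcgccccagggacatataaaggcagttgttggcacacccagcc
LTB: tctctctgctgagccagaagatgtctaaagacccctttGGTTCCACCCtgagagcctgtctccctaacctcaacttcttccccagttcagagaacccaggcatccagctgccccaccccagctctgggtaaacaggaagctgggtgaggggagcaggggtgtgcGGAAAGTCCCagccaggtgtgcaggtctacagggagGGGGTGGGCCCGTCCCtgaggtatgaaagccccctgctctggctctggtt
TNFSF9: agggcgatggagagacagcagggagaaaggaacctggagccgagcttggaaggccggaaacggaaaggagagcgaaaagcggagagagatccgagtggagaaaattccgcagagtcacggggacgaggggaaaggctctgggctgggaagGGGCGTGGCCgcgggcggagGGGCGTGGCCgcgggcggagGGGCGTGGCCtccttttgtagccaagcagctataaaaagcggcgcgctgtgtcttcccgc
TNFSF10: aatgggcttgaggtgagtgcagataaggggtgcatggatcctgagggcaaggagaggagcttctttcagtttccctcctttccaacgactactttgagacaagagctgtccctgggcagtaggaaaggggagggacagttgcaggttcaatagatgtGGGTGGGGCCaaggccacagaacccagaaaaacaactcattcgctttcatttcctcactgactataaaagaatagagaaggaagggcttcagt
Of the 10 genes, 8 had an entry in the RefSeq promoter table, with 11 entries among them. CD40 and TNFSF12 had none. The narrow pattern was present in 0.527% of the 35116 human promoters of this length. Among the members it was found only in LTB, as GGGACTTTCC read from the opposite strand, at positions -86 to -77 counted from the start, where the printed line has GGAAAGTCCC. The wide pattern was present in 54.4% of promoters. It was found in TNF, at positions -101 to -92, and in LTA, LTB, TNFSF9, TNFSF10 and LTBR, and in none of the entries of TNFSF15 and TNFSF13B. The entries of LTBR, TNFSF15 and TNFSF13B lay wholly inside the gene spans given below. The bases before the outermost start of these spans were therefore not read. In TNFSF9 the same letters, GGGCGTGGCC, occurred 3 times. A match is a run of letters and not a measured binding site.

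Each library held between 27269986 and 33851130 expected counts, the estimated number of read pairs per gene. A count of 3 corresponded to between 0.0886 and 0.110 CPM, the count scaled to the size of the library, and CPM values below also carry TMM factors of 0.913 to 1.06. Tubule epithelium was represented by KRT8, at a mean of 783 CPM in Ctrl, and by KRT18, PAX8 and GGT1. By contrast, LRP2 and SLC34A1, markers of the mature proximal tubule, had means of at most 0.0702 CPM in Ctrl and TN. None of 8 lymphocyte markers reached a mean of 1 CPM in any group, and their sum was at most 0.517 CPM. Within the tubule list the markers moved apart: mean PAX8 was 364 and 403 CPM in Ctrl and TN and 131 to 158 with an SCFA, and GGT1 221 and 194 against 63.9 to 72.4, whereas KRT8 had 783 and 725 against 1086 to 1425 and KRT19 4.89 and 4.53 against 82.4 to 119. The summed myeloid markers, mostly CD68, were 31.0 to 36.7 CPM without an SCFA, 29.4 to 37.2 with propionate and 43.8 to 54.3 with butyrate. The summed fibroblast markers, mostly COL1A1, were 44.6 to 53.6 CPM without an SCFA and 153 to 211 CPM with one. The summed endothelial markers were at most 0.287 CPM without an SCFA and 2.21 to 3.64 CPM with one, and the part of any of these lists in the results was not tested. In bulk RNA, fewer cells expressing a gene and less RNA per cell cannot be told apart.

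Each comparison used limma-voom with all 12 libraries in 1 model, and a gene was called when it changed over 1.5-fold with an adjusted P under 0.05 across the 24342 genes tested. Of the 10 members 9 entered the test. TNFSF12 had too few reads, and TNFSF15 passed the filter on low counts only through the groups in which it was high, so it is described by its counts below and left out of the numbers of members called. The other 8 also passed the filter within the 4 libraries without an SCFA and within the 8 with one, as did 21433 of all tested genes. The question of the TN against Ctrl comparison was what TNF-α alone did to these genes. LTB and CD40 rose, none of the 8 fell and 6 were not called, where the background was 0.764% of all tested genes called higher and 0.534% called lower. The question of the next comparisons was how cells given an SCFA before or after TNF-α differed from cells given TNF-α alone. Relative to TN, TNF and TNFSF9 were higher with either SCFA at either timing, and LTB, TNFSF10, CD40 and LTBR were lower. LTA was also called lower in TNPR and TNBU. PRTN thus had 2 members higher and 4 lower of 8, where 23.9% of all tested genes were called higher and 16.7% lower. BUTN had 2 and 4 (background 23.1% and 14.8%). TNPR had 2 and 5 (24.9% and 16.9%), as did TNBU (25% and 16.5%). Among the 21433 genes that passed the filter in both sets of libraries, 19.7% to 21.8% were called higher and 16.5% to 18.9% lower in these 4 comparisons. The median log2 fold change of the 8 members was 0.67 in TN against Ctrl, and against TN it was -1.07 for PRTN, -0.94 for BUTN, -1.39 for TNPR and -1.57 for TNBU. Over the 21433 genes the corresponding medians lay between -0.0196 and 0.0049. Against Ctrl, TNF and TNFSF9 were higher and TNFSF10, CD40 and LTBR lower in all 4 SCFA groups, with LTB also lower in TNPR and TNBU and LTA in TNBU. The LTA call in TNBU against Ctrl (adjusted P = 0.0481) was lost in DESeq2 (adjusted P = 0.232), under both other scalings (adjusted P = 0.0517 and 0.0706), with only those groups fitted (adjusted P = 0.0893) and without Ctrl replicate 2, TNBU replicate 1 or TNBU replicate 2 (adjusted P = 0.213, 0.123 and 0.150). Of all tested genes, PRTN had 22.6% called higher and 16.9% lower against Ctrl, and BUTN 22% and 14.9%. TNPR had 23.6% and 16.8%, and TNBU 23.6% and 16.5%. Scaling by library size alone raised the median over all genes by 0.153 to 0.196 on the log2 scale in the comparisons with TN and changed the direction of no tested member named with a fold there. The 4 comparisons against TN share the same 2 TN libraries, so they are not independent of one another.

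**Figure D1:**
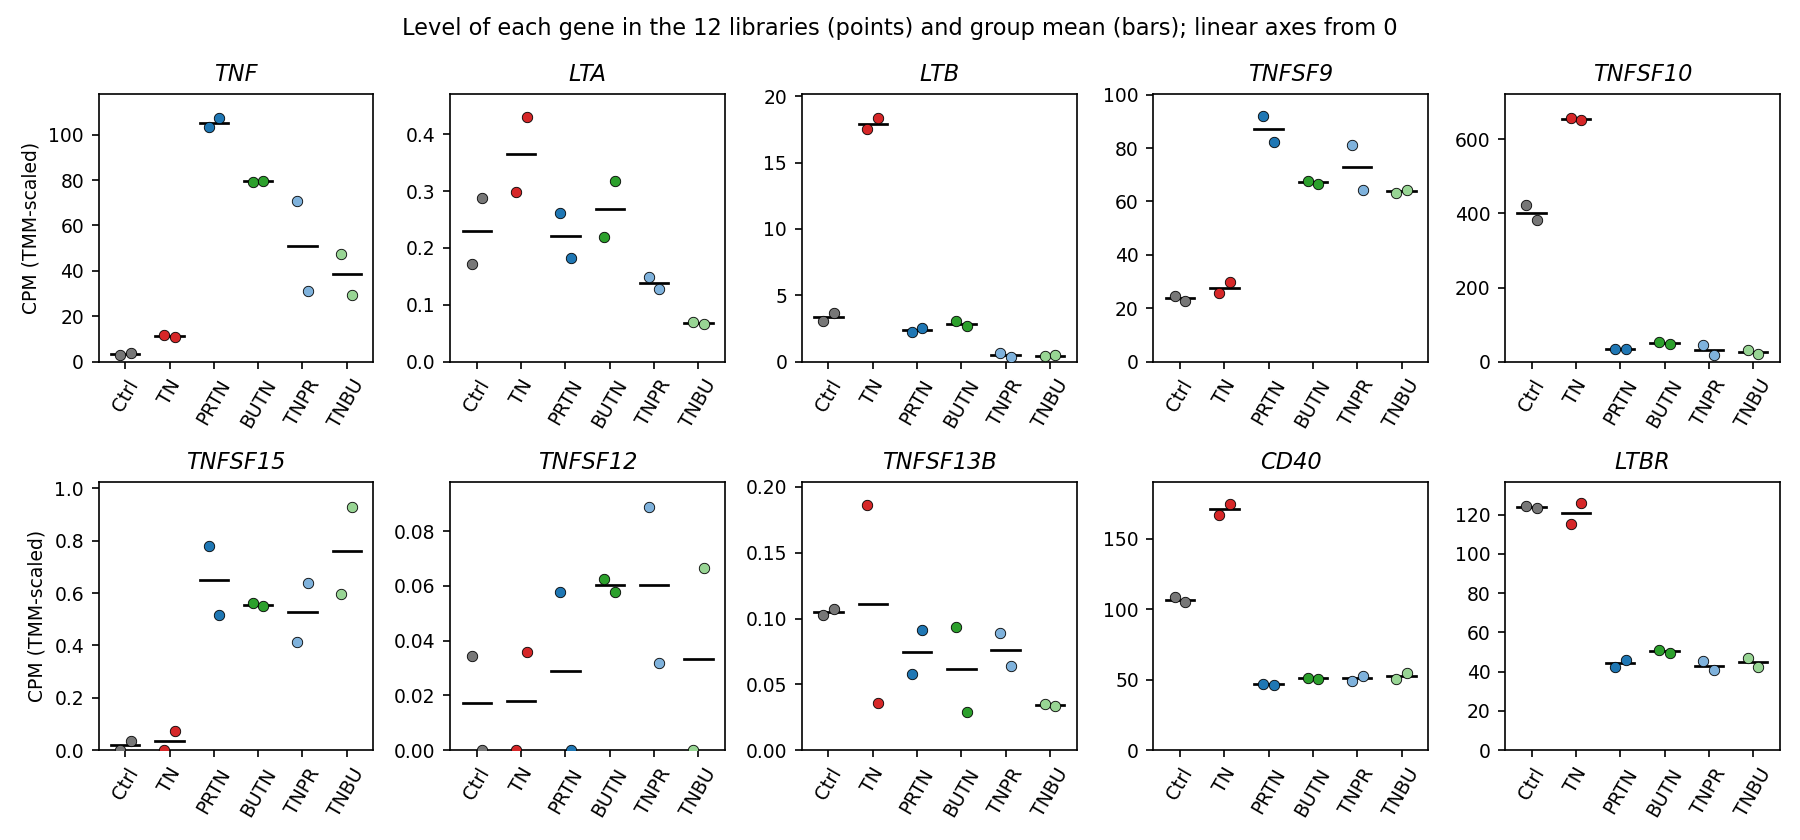
Level of each of the 10 genes in every library, in TMM-scaled CPM on linear axes that start at 0; points are libraries, horizontal bars are the mean of 2 libraries, and groups are along the x axis. TNF sits between 29.5 and 107 CPM in the 8 SCFA libraries and at most 11.5 CPM in the others, while TNFSF10 sits between 19.1 and 51.9 CPM in the SCFA libraries and between 383 and 657 CPM in the others.

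TNF encodes the founding cytokine of the family, a trimer shed by ADAM17 that signals through TNFRSF1A and TNFRSF1B. The gene spans chr6:31575565-31578336 on the plus strand (GRCh38, GENCODE annotation). The Ctrl libraries held 88 and 104 TNF counts and the TN libraries 310 and 300. PRTN held 3573 and 3529, BUTN 2535 and 2759, TNPR 2384 and 978, and TNBU 1359 and 890. Every SCFA library therefore lay above both TN libraries, and both TN libraries lay above Ctrl. As CPM, Ctrl had 3.38 ± 0.4998, TN 11.2 ± 0.547, PRTN 105 ± 2.76, BUTN 79.5 ± 0.296, TNPR 50.9 ± 27.8 and TNBU 38.6 ± 12.8 (mean ± SD, n = 2 each).

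Against TN, TNF was 9.44-fold higher in PRTN (log2 3.24, SE 0.35, adjusted P = 5.79e-06) and 7.13-fold higher in BUTN (log2 2.83, SE 0.36, adjusted P = 2.33e-05). It was 4.23-fold higher in TNPR (log2 2.08, SE 0.36, adjusted P = 0.000312) and 3.35-fold higher in TNBU (log2 1.745, SE 0.37, adjusted P = 0.00138). Without TNPR replicate 1 the TNPR difference was 1.44 on the log2 scale, still called. Against Ctrl, the fold in PRTN was 31.3 (adjusted P = 4.40e-06) and in TNBU, the lowest of the SCFA groups, 11.1 (adjusted P = 0.000119). The rise with TNF-α alone, 3.31-fold with a 95% interval of 0.47 to 2.99 on the log2 scale, missed the threshold in limma-voom (adjusted P = 0.136). It passed in edgeR (adjusted P = 0.0404), in DESeq2 (adjusted P = 0.000917) and when only Ctrl and TN were fitted (adjusted P = 0.0474). The range of adjusted P over the alternatives for this comparison was 0.000917 to 0.444.

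The replicates of TNPR and of TNBU differed from each other more than those of PRTN or BUTN did, and not for TNF alone. Averaged over genes, a chi-square of replicate counts against library totals was 15.1 in TNPR and 18.1 in TNBU. It was 3.17 to 6.61 in the other groups. TNF was 2.26-fold higher in TNPR replicate 1 than in replicate 2, and 1.61-fold higher in TNBU replicate 1 than in replicate 2, against at most 1.04-fold between the replicates of PRTN and of BUTN. The difference between TNPR and PRTN was -1.16 on the log2 scale (adjusted P = 0.135) and that between TNBU and BUTN -1.09 (adjusted P = 0.101), neither of them called. Without TNPR replicate 1 the former was -1.76 and passed (adjusted P = 0.00435), and without TNBU replicate 1 the latter was -1.45 and passed (adjusted P = 0.0329).

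LTB encodes lymphotoxin-β, the membrane anchor of the lymphotoxin heterotrimer that binds LTBR. It lies at chr6:31580525-31582522 on the minus strand, with its 3′ end 2188 bases from the end of TNF. Ctrl had 90 and 103 counts and TN 471 and 511. PRTN had 78 and 84, BUTN 98 and 92, TNPR 23 and 12, and TNBU 11 and 16. The TN libraries thus stood alone at the top, the groups treated before TNF-α stood near Ctrl, and the groups treated after it stood lowest. The CPM were 3.39 ± 0.426, 17.9 ± 0.570, 2.41 ± 0.210, 2.86 ± 0.288, 0.532 ± 0.210 and 0.458 ± 0.103 in that order (SD, n = 2 each).

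LTB rose 5.30-fold in TN over Ctrl (log2 2.41, SE 0.15, adjusted P = 4.26e-06). Against TN it fell by 2.90 on the log2 scale in PRTN (SE 0.15, adjusted P = 1.33e-08), a 7.44-fold difference, and by 2.65 in BUTN (SE 0.15, adjusted P = 2.40e-08), a 6.27-fold difference. It was 33.8-fold lower in TNPR (log2 -5.08, SE 0.27, adjusted P = 1.35e-08) and 38.1-fold lower in TNBU (log2 -5.25, SE 0.30, adjusted P = 2.36e-08). Against Ctrl, the PRTN difference of -0.49 had an adjusted P of 0.0433 but was under 1.5-fold, and the BUTN difference of -0.24 did not pass (adjusted P = 0.285). TNPR and TNBU were below Ctrl by 6.37-fold (adjusted P = 6.48e-06) and 7.19-fold (adjusted P = 7.44e-06).

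LTB was the only member called between the timings. It was 4.54-fold lower in TNPR than in PRTN (log2 -2.18, SE 0.30, adjusted P = 0.0101), where 0.16% of all tested genes were called in either direction. It was 6.08-fold lower in TNBU than in BUTN (log2 -2.60, SE 0.32, adjusted P = 0.00434), where 0.267% were. The former call was lost without PRTN replicate 1 (adjusted P = 0.0553) or TNPR replicate 2 (adjusted P = 0.0851), and both were lost when only the compared groups were fitted (adjusted P = 0.221 and 0.103). TNF and LTB, neighbours on the chromosome, were both higher in TN than in Ctrl in every library, and moved in opposite directions from TN in each of the SCFA groups.

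LTA encodes lymphotoxin-α, which is secreted as a homotrimer or joins LTB at the membrane. It lies 1240 bases before TNF on the same strand (chr6:31572054-31574324). It was near the limit of detection, with 5 and 8 counts in the Ctrl libraries and 8 and 12 in the TN libraries. PRTN had 9 and 6, BUTN 7 and 11, TNPR 5 and 4, and TNBU 2 and 2. Its differences from TN of -1.30 in TNPR (adjusted P = 0.0337) and -2.15 in TNBU (adjusted P = 0.00567) passed in limma-voom. In DESeq2 neither passed (adjusted P = 0.258 and 0.0714). The TNPR call was also lost with library size alone (adjusted P = 0.0599) and with only TN and TNPR fitted (adjusted P = 0.0625). It was lost too without TN replicate 2 (log2 -1.07), TNPR replicate 1 (-1.44) or TNPR replicate 2 (-1.27). The other genes within 25 kb were read for comparison and were chosen after their values were seen. NFKBIL1, on the far side of LTA, differed from TN by at most 0.07 in size on the log2 scale in the SCFA groups and was not called. LST1 and NCR3, beyond LTB, had at most 20 and 14 counts. In limma-voom LST1 was called higher in TN against Ctrl (log2 2.22, adjusted P = 0.0402) and lower in TNPR against TN (-1.44, adjusted P = 0.0139). It was not called in the other SCFA groups. The former call was lost with only those groups fitted (adjusted P = 0.159) and with a replicate block (adjusted P = 0.0531), and the latter in DESeq2 (adjusted P = 0.136). Leaving out any Ctrl or TN library also lost the former (log2 1.69 to 2.77). Leaving out TN replicate 2 (log2 -1.19) or TNPR replicate 2 (-1.17) lost the latter. NCR3 had 0 and 1 counts in TN and 7 to 14 in every SCFA library, so it passed the filter on low counts only through the SCFA groups.

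**Figure D2:**
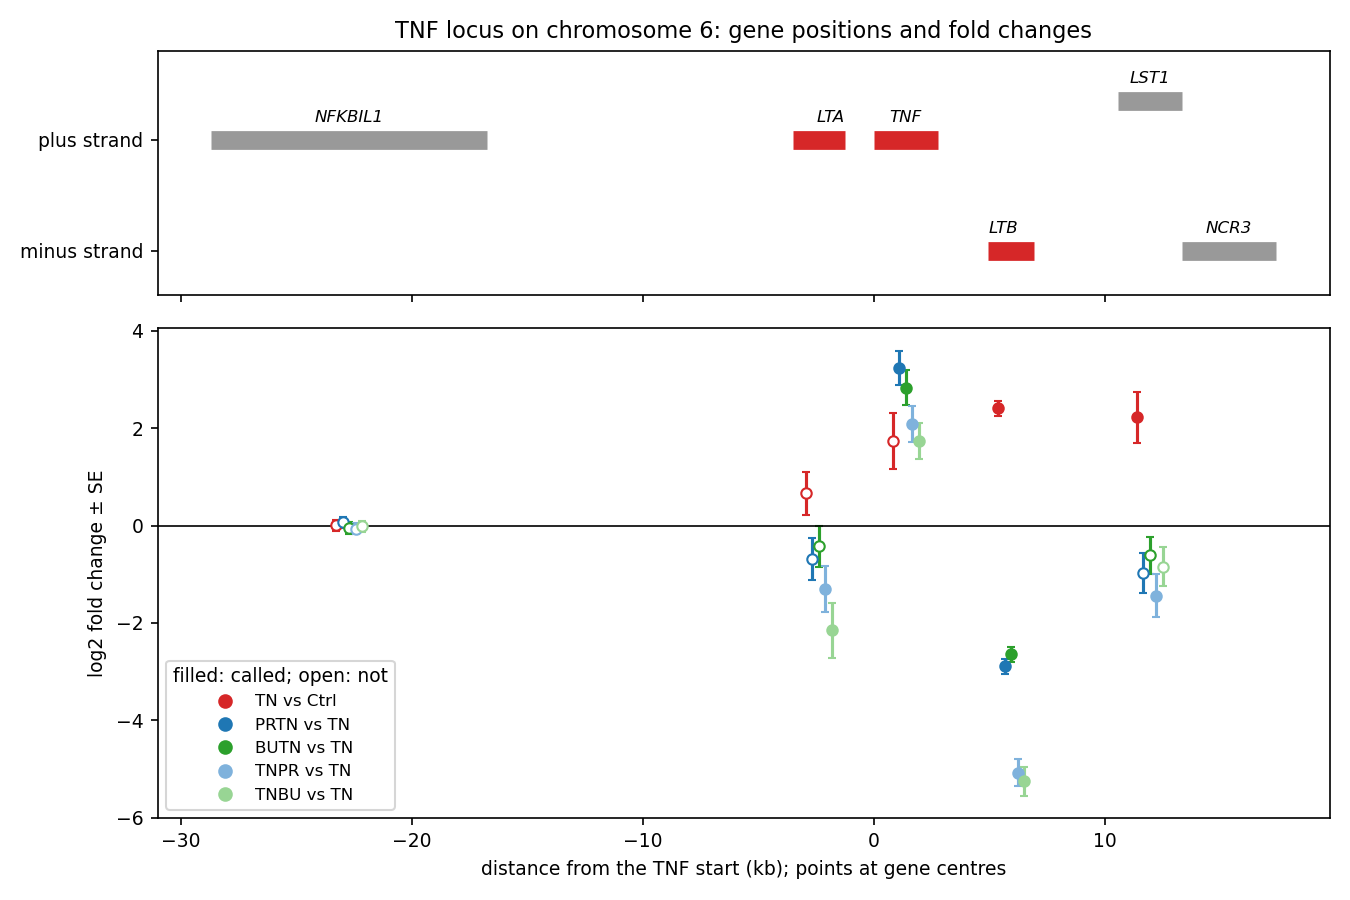
Genes within 25 kb of the LTA, TNF and LTB cluster, drawn to scale by distance in kb from the TNF start and by strand (upper panel, members in red; LST1 is raised for legibility), with their log2 fold changes ± SE in 5 comparisons (lower panel, without NCR3 for its low counts). TNF lies at 1.745 to 3.24 and LTB at -5.25 to -2.65 in the 4 comparisons with TN, while NFKBIL1 stays within 0.07 of 0.

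TNFSF9, at chr19:6531026-6535924, encodes 4-1BB ligand, a costimulatory protein that binds TNFRSF9. Ctrl had 721 and 631 counts and TN 689 and 828. PRTN had 3185 and 2707, BUTN 2160 and 2308, TNPR 2744 and 2012, and TNBU 1805 and 1942. The Ctrl libraries had 24.8 and 22.6 CPM and the TN libraries 25.7 and 29.7, so both TN libraries lay above Ctrl in level, and every SCFA library lay above both groups. The level was 27.7 ± 2.88 CPM in TN and between 63.8 ± 0.863 (TNBU) and 87.3 ± 6.97 CPM (PRTN) with an SCFA (SD, n = 2 each). PRTN was 3.15-fold above TN (adjusted P = 9.86e-08) and BUTN 2.43-fold (adjusted P = 1.22e-06), while TNPR was 2.62-fold (adjusted P = 4.57e-07) and TNBU 2.31-fold above it (adjusted P = 1.88e-06). TNF-α alone gave 0.22 on the log2 scale (95% interval -0.05 to 0.50), which did not pass (adjusted P = 0.419).

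TNFSF10 encodes TRAIL, a ligand that can trigger apoptosis through TNFRSF10A and TNFRSF10B. The gene spans chr3:172505508-172523475 on the minus strand. Ctrl had 12281 and 10684 counts and TN 17653 and 18165. PRTN had 1199 and 1158, BUTN 1660 and 1690, TNPR 1513 and 596, and TNBU 918 and 642. The highest SCFA library, with 1690 counts, was below the lowest Ctrl library. The level fell from 655 ± 3.68 CPM in TN to 34.97 ± 0.363 with propionate and 50.4 ± 2.19 with butyrate before TNF-α, and to 31.9 ± 18.2 and 26.7 ± 7.67 when they followed it (SD, n = 2 each). These were differences of 18.7-fold (log2 -4.23, SE 0.24, adjusted P = 2.00e-08), 13.001-fold (-3.70, SE 0.23, adjusted P = 5.73e-08), 22.2-fold (-4.47, SE 0.24, adjusted P = 1.52e-08) and 25.1-fold (-4.65, SE 0.25, adjusted P = 1.73e-08). The 2 TNPR libraries differed 2.35-fold from each other, and replicate 1 was the higher, as it was for TNF and for LTB. With each library left out the TNPR difference from TN ranged from -5.14 to -3.93 on the log2 scale. The 1.63-fold difference between TN and Ctrl did not pass (adjusted P = 0.0811), but it did with a weaker filter on low counts (adjusted P = 0.0142) and when only those groups were fitted (adjusted P = 0.0474).

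TNFSF15, at chr9:114784652-114806039 on the minus strand, encodes TL1A, which binds TNFRSF25. It had 0 and 1 counts in Ctrl and 0 and 2 in TN. PRTN had 27 and 17 counts, BUTN 18 and 19, TNPR 14 and 20, and TNBU 17 and 28, so every SCFA library exceeded every library without one. Since TN held 2 counts in all, the ratio to TN is given with its 95% counting interval, which covers counting error only. The ratio was 17.9 for PRTN (4.66 to 152), 15.2 for BUTN (3.92 to 130), 14.3 for TNPR (3.67 to 123) and 21.0 for TNBU (5.48 to 179). Because the filter had let the gene through on the SCFA libraries alone, no test is given for it. In level the gene stayed low, at 0.527 to 0.762 CPM with an SCFA.

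TNFSF12, at chr17:7548508-7557890, encodes TWEAK, the ligand of TNFRSF12A, and TNFSF13B, at chr13:108251240-108308484, encodes BAFF, a survival factor for B cells. TNFSF12 had 0 to 3 counts in every library and was not tested. The read-through transcript that joins it to its neighbour TNFSF13 had 0 counts in all libraries. TNFSF13B had 1 to 5 counts in every library and was not called in any comparison. At this depth a fall or a small rise was not detectable for either gene, whereas a large rise would have been.

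CD40 is the receptor for CD40L, best known from B cells and also present on epithelium. The gene spans chr20:46118271-46129863. Ctrl had 3153 and 2940 counts and TN 4484 and 4867. PRTN had 1630 and 1523, BUTN 1638 and 1748, TNPR 1664 and 1648, and TNBU 1433 and 1657. The groups formed 3 separate levels, with TN highest, Ctrl between and the SCFA libraries lowest. TNF-α alone raised CD40 1.60-fold (log2 0.68, SE 0.06, adjusted P = 6.25e-05), from 107 ± 2.02 to 171 ± 5.49 CPM. With an SCFA the level was 46.8 ± 0.609 (PRTN), 50.9 ± 0.518 (BUTN), 51.0 ± 2.42 (TNPR) and 52.6 ± 3.39 CPM (TNBU). PRTN was 3.65-fold below TN (adjusted P = 4.77e-10) and BUTN 3.36-fold (adjusted P = 1.10e-09), and TNPR and TNBU were 3.35-fold (adjusted P = 7.30e-10) and 3.25-fold below it (adjusted P = 1.04e-09). It was also 2.03- to 2.28-fold below Ctrl in these groups, each difference called.

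LTBR, at chr12:6375045-6391571, encodes the receptor of the lymphotoxin heterotrimer. The Ctrl libraries had 124 and 123 CPM and the TN libraries 115 and 126. PRTN had 42.5 and 45.8, BUTN 50.9 and 49.7, TNPR 45.5 and 40.7, and TNBU 46.9 and 42.6. The means were 124 ± 0.709 CPM in Ctrl and 121 ± 7.45 in TN, with overlapping libraries and a log2 difference of -0.04 (95% interval -0.20 to 0.11, adjusted P = 0.840). With an SCFA it was 44.2 ± 2.33 (PRTN), 50.3 ± 0.827 (BUTN), 43.1 ± 3.42 (TNPR) and 44.7 ± 3.05 CPM (TNBU; SD, n = 2 each). Every SCFA library was below every other library. The differences from TN were 2.73-fold (adjusted P = 1.13e-08), 2.396-fold (adjusted P = 4.26e-08), 2.80-fold (adjusted P = 8.88e-09) and 2.70-fold (adjusted P = 1.51e-08), in that order. Its counts were not whole numbers in 7 of the 12 libraries, since some of its reads were shared with other features. The counts of the other 9 genes were whole in every library.

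**Figure D3:**
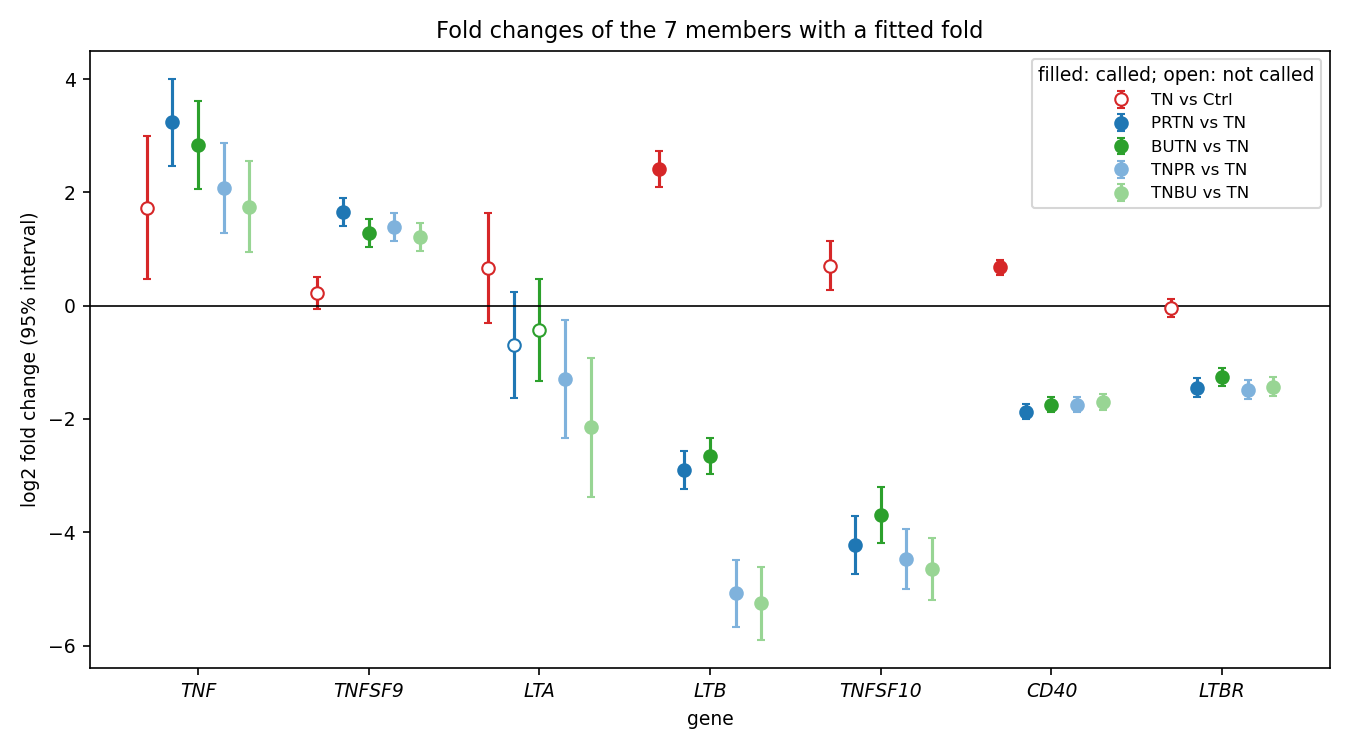
Log2 fold changes with 95% intervals (y axis) of 7 members in TN against Ctrl and in each SCFA group against TN; filled points were called and open points were not. TNFSF15 and TNFSF13B are left out because their counts in TN were too low for a fitted fold. TNF and TNFSF9 lie above 0 and LTB, TNFSF10, CD40 and LTBR below 0 in all 4 comparisons with TN, and the LTB points for TNPR (-5.08) and TNBU (-5.25) lie below those for PRTN (-2.90) and BUTN (-2.65).

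Propionate and butyrate were given at different doses, so their values stand side by side and do not compare the molecules at equal concentration. No member was called between PRTN and BUTN, where 0.168% of all tested genes were, nor between TNPR and TNBU, where 0.00822% were. The 95% interval of the log2 difference between PRTN and BUTN was -0.15 to 0.96 for TNF, -0.66 to 0.17 for LTB, 0.16 to 0.60 for TNFSF9, -1.10 to 0.05 for TNFSF10, -0.27 to 0.02 for CD40 and -0.36 to -0.02 for LTBR. The after-minus-before difference was compared between the SCFAs by an interaction term. No member passed, and neither did any other gene in limma-voom, although 935 genes had an unadjusted P under 0.05, edgeR called 1 gene and DESeq2 called 4. For LTB the interaction was 0.42 on the log2 scale (95% interval -0.53 to 1.37). Between the timings, TNFSF9 differed by -0.27 with propionate (adjusted P = 0.350) and by -0.07 with butyrate (adjusted P = 0.803), and TNFSF10 by -0.25 (adjusted P = 0.777) and -0.95 (adjusted P = 0.155).

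The levels of different genes were compared as CPM per kilobase (kb) of the Ensembl canonical transcript. In Ctrl the order was TNFSF10 (214 ± 14.6), CD40 (63.5 ± 1.20), LTBR (58.1 ± 0.332), TNFSF9 (14.5 ± 0.924), LTB (3.80 ± 0.477) and TNF (2.01 ± 0.298). In TN it was TNFSF10 (349 ± 1.96), CD40 (102 ± 3.26), LTBR (56.5 ± 3.49), LTB (20.1 ± 0.639), TNFSF9 (16.9 ± 1.76) and TNF (6.65 ± 0.326). TNF therefore stood last of these 6 genes in the absence of SCFAs. The libraries of neighbouring genes in the order did not overlap in Ctrl or TN, nor in PRTN. In PRTN the order was TNF (62.8 ± 1.65), TNFSF9 (53.4 ± 4.27), CD40 (27.8 ± 0.362), LTBR (20.7 ± 1.09), TNFSF10 (18.6 ± 0.193) and LTB (2.69 ± 0.235). In BUTN it began with TNF (47.4 ± 0.177) and TNFSF9 (41.1 ± 0.382) and ended with LTB (3.21 ± 0.323). TNF was thus the most abundant of these transcripts per length in both groups treated before TNF-α. In TNPR, TNFSF9 (44.6 ± 7.32) came before TNF (30.4 ± 16.6) and CD40 (30.3 ± 1.44), and these neighbours overlapped, as did LTBR (20.2 ± 1.60) and TNFSF10 (17.0 ± 9.71). In TNBU, TNFSF9 (39.1 ± 0.528) was followed by CD40 (31.3 ± 2.02), TNF (23.0 ± 7.61) and LTBR (21.0 ± 1.43), of which the last pair overlapped. LTA, TNFSF15, TNFSF13B and TNFSF12 were below 0.26 CPM per kb in every group. When the length of all exons was used in its place, a choice made after the data were seen, the place of TNF moved only in TNBU, from the third to the second. The places of other members moved as well: CD40 and LTBR changed places in Ctrl, LTB and TNFSF9 in TN, and CD40 and TNFSF10 in BUTN, while TNFSF10 rose from the fifth to the third in PRTN and TNPR and to the fourth in TNBU.

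**Figure D4:**
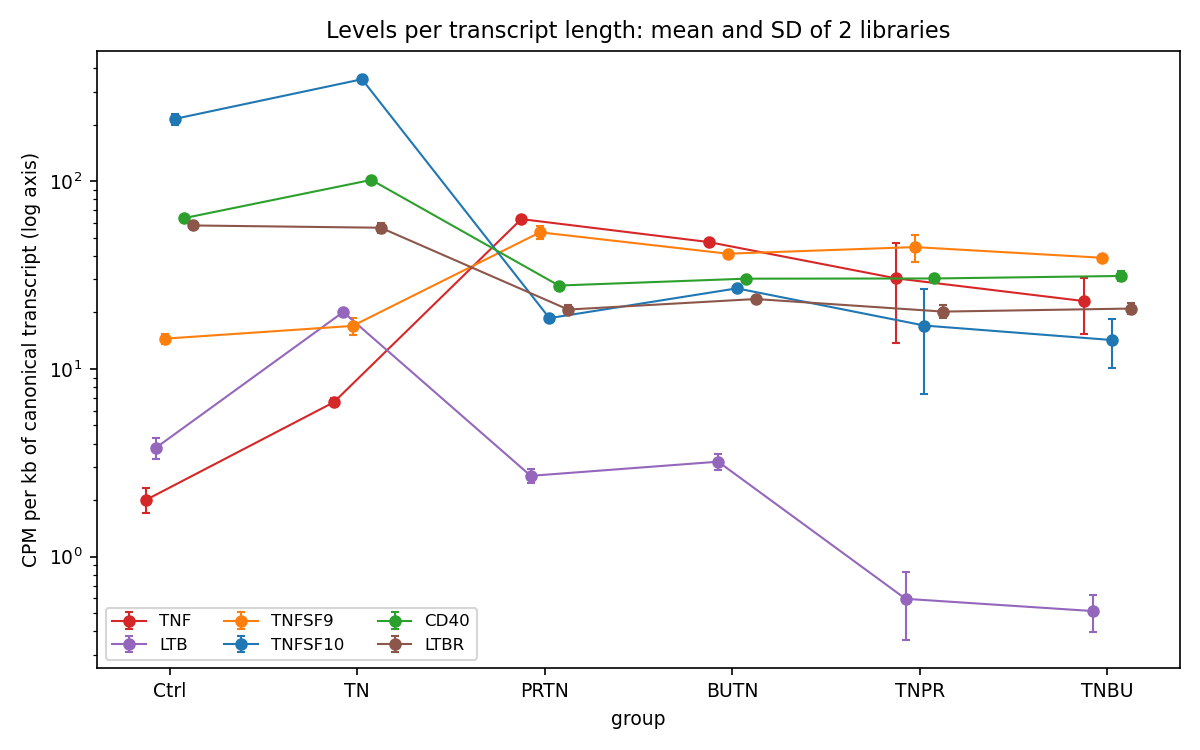
Level of 6 members in each group as CPM per kb of canonical transcript (log axis), as the mean and SD of 2 libraries; lines join the values of a gene and groups are along the x axis. TNFSF10 falls from 349 in TN to between 14.3 and 26.9 in the SCFA groups, while TNF rises from 6.65 to between 23.0 and 62.8, so that their order is reversed.

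For TNF, LTB and CD40 the 3 genes with the most similar pattern over the 6 groups were sought among 13836 genes with a mean of at least 1 CPM. Likeness was the mean absolute difference in centred log2 CPM. TNF, whose own range was 4.96, was closest to CCL20, a chemokine (0.33), FAM19A3 (0.38) and ROS1, a receptor tyrosine kinase (0.41). For CCL20, Ctrl had 56.6 ± 1.37 CPM, TN 214 ± 2.77, PRTN 913 ± 32.2, BUTN 992 ± 69.0, TNPR 693 ± 138 and TNBU 717 ± 45.5. LTB, with a range of 5.26, had no close match, the nearest being LINC02015 (0.70), ADAMTS9-AS1 (0.71) and CXCL3, a chemokine (0.71). CD40, with a range of 1.87, was closest to TRPC4, a cation channel (0.07), HSPB8, a small heat shock protein (0.07), and BCAT1, an amino acid transaminase (0.09).

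The genes around these ligands and receptors were read from 5 fixed lists. Of 10 other TNF superfamily ligands 8 were tested. None was called in TN against Ctrl. TNFSF8 and FASLG had 0 counts in TN and at most 6 and 8 in any library, and passed the filter on low counts only through the SCFA groups. Of the other 6, 1 was higher than in TN in every SCFA group, and 2 were lower in PRTN, BUTN and TNBU and 3 in TNPR, beside 19.7% to 21.8% higher and 16.5% to 18.9% lower among the 21433 genes. TNFSF14, with 4 to 26 counts, was among the lower calls in PRTN, BUTN and TNPR. Its calls were lost in DESeq2 (adjusted P = 0.136, 0.159 and 0.0635). The PRTN call was also lost with only those groups fitted (adjusted P = 0.0556). The BUTN call was also lost with library size alone (adjusted P = 0.0618) and with a weaker filter (adjusted P = 0.0558). With each library left out its log2 difference ranged from -2.63 to -0.74 in PRTN. EDA, which acts in the development of skin appendages, had 4 to 13 counts in the libraries without an SCFA and 179 to 298 in those with one, and its log2 fold changes against TN were 3.83 to 4.47. TNFSF13, which encodes APRIL, had 21.3 ± 2.06 CPM in TN and between 6.18 ± 0.687 and 8.43 ± 0.112 CPM with an SCFA, and fell in all 4 SCFA groups by 1.33 to 1.78 on the log2 scale.

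Of 15 receptors that bind the members, 13 were tested, and TNFRSF9, the receptor of TNFSF9, alone was called in TN against Ctrl (log2 1.23, adjusted P = 4.26e-06). TNFRSF9 was also called higher than TN in PRTN (log2 0.67), BUTN (0.92) and TNBU (0.60), but not in TNPR. Its TNBU call missed the fold threshold with a weaker filter (log2 0.576) and without TN replicate 1 (0.56) or TNBU replicate 1 (0.47). TNFRSF13B, a receptor of TNFSF13B, had 0 counts in the Ctrl and TN libraries and at most 7 in any other, and passed the filter only through the SCFA groups. Of the other 12, PRTN had 5 higher and 4 lower than TN, BUTN 4 and 3, TNPR 3 and 4, and TNBU 4 and 4, beside the same shares of the 21433 genes. The 2 receptors of TNF went opposite ways. TNFRSF1B rose from 1.08 ± 0.257 CPM in TN to between 8.61 ± 0.301 and 11.8 ± 0.295, with log2 fold changes of 2.99 to 3.46. TNFRSF1A had 96.3 ± 6.09 CPM in TN and 57.4 ± 8.65 to 68.8 ± 2.52 with an SCFA, and was called lower in PRTN, TNPR and TNBU but not in BUTN. TNFRSF1A decreased by less than the fold threshold without TN replicate 2 (log2 -0.58) or PRTN replicate 1 (-0.57) in PRTN, and without TNBU replicate 2 (-0.55) in TNBU. With scaling by library size alone all 3 of these calls missed it (PRTN -0.46, TNPR -0.58, TNBU -0.46). TNFRSF25, the receptor of TNFSF15, rose in all 4 SCFA groups by 1.24 to 1.51 on the log2 scale. TNFRSF14, a receptor of LTA, fell from 67.7 ± 3.10 CPM to between 10.4 ± 0.399 and 15.0 ± 1.43. TNFRSF12A, the receptor of TNFSF12, decreased by 1.32 to 1.60 on the log2 scale, and TNFRSF10A, a receptor of TNFSF10, decreased by 1.02 to 1.21. Other receptors of TNFSF10 did not all follow TNFRSF10A. TNFRSF10B, the most abundant of them, had 285 ± 5.75 CPM in TN and 204 ± 7.14 to 240 ± 4.33 with an SCFA. TNFRSF10D had 78.4 ± 1.33 CPM in TN and 84.9 ± 7.10 to 118 ± 3.80 with an SCFA. TNFRSF10C had 0.989 ± 0.181 CPM in TN and 0.685 ± 0.171 to 0.788 ± 0.152 with an SCFA.

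All 11 genes of the signalling list below CD40 and LTBR were tested. In TN against Ctrl 5 rose (TRAF1, BIRC2, BIRC3, NFKB2 and RELB) and none fell, where 0.764% of all tested genes were called higher and 0.534% lower. The TRAF1 call was lost without Ctrl replicate 1 (adjusted P = 0.247), Ctrl replicate 2 (adjusted P = 0.127) or TN replicate 2 (adjusted P = 0.152), and BIRC2 fell short of the fold threshold without Ctrl replicate 2 (log2 0.55) or TN replicate 1 (0.56) and with library size alone (0.57). With only Ctrl and TN fitted, TRAF1, BIRC2 and RELB were not called (adjusted P = 0.178, 0.0732 and 0.0532). BIRC3, a ubiquitin ligase that restrains MAP3K14, went from 238 ± 3.08 CPM in Ctrl to 487 ± 24.2 in TN, and NFKB2, the precursor of p52, from 94.3 ± 0.0499 to 189 ± 9.33. Against TN, PRTN had 2 higher and 2 lower, BUTN 2 and 0, TNPR 1 and 3, and TNBU 2 and 3, beside the same shares. MAP3K14, the kinase of the non-canonical route, rose in all 4 SCFA groups by 1.03 to 1.19 on the log2 scale, from 32.3 ± 1.69 CPM in TN. BIRC3 also stood above its TN level with each SCFA, lowest for TNPR (685 ± 24.1 CPM) and highest for BUTN (1298 ± 23.1 CPM). It was called higher than TN in every SCFA group except TNPR. Its TNBU call (log2 0.70) missed the fold threshold without TNBU replicate 1 (log2 0.50). The adaptor TRAF3 was called lower in PRTN (log2 -0.61, adjusted P = 5.29e-06), TNPR and TNBU, and RELB and the adaptor TRAF5 in TNPR and TNBU. TRAF5 in TNBU missed the fold threshold without TN replicate 1 (log2 -0.57), and with library size alone TRAF3 missed it in PRTN (-0.46), TRAF5 in TNPR (-0.52) and TNBU (-0.41) and RELB in TNBU (-0.48). Of 6 genes that process or release the ligands 5 were tested, none was called in TN, and FURIN, a proprotein convertase, fell in all 4 SCFA groups by 0.87 to 1.08 on the log2 scale. ADAM17, the sheddase of TNF, decreased by 0.62 to 0.79 on the log2 scale in PRTN, TNPR and TNBU, and in TNBU missed the fold threshold without TNBU replicate 2 (log2 -0.58); with library size alone it missed it in PRTN (-0.47) and TNBU (-0.56). Of 6 proteins that bind TNF messenger RNA, none was called in TN. ZFP36, which promotes decay of TNF messenger RNA, was called higher in PRTN alone (log2 1.08, adjusted P = 0.0170), a call lost without TN replicate 2 (adjusted P = 0.159) or PRTN replicate 1 (adjusted P = 0.0777). Whether that differed from the other groups was not tested for ZFP36. In the same list RC3H1, which binds and destabilises messenger RNAs, was called lower in BUTN, TNPR and TNBU (log2 -0.62, -0.59 and -0.59), and ZFP36L1, a paralogue of ZFP36, in TNBU (-0.599). With library size alone these 4 calls missed the fold threshold, and both TNBU calls also did in DESeq2 (-0.57 and -0.58) and without TNBU replicate 2 (-0.46 and -0.49).

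**Figure D5:**
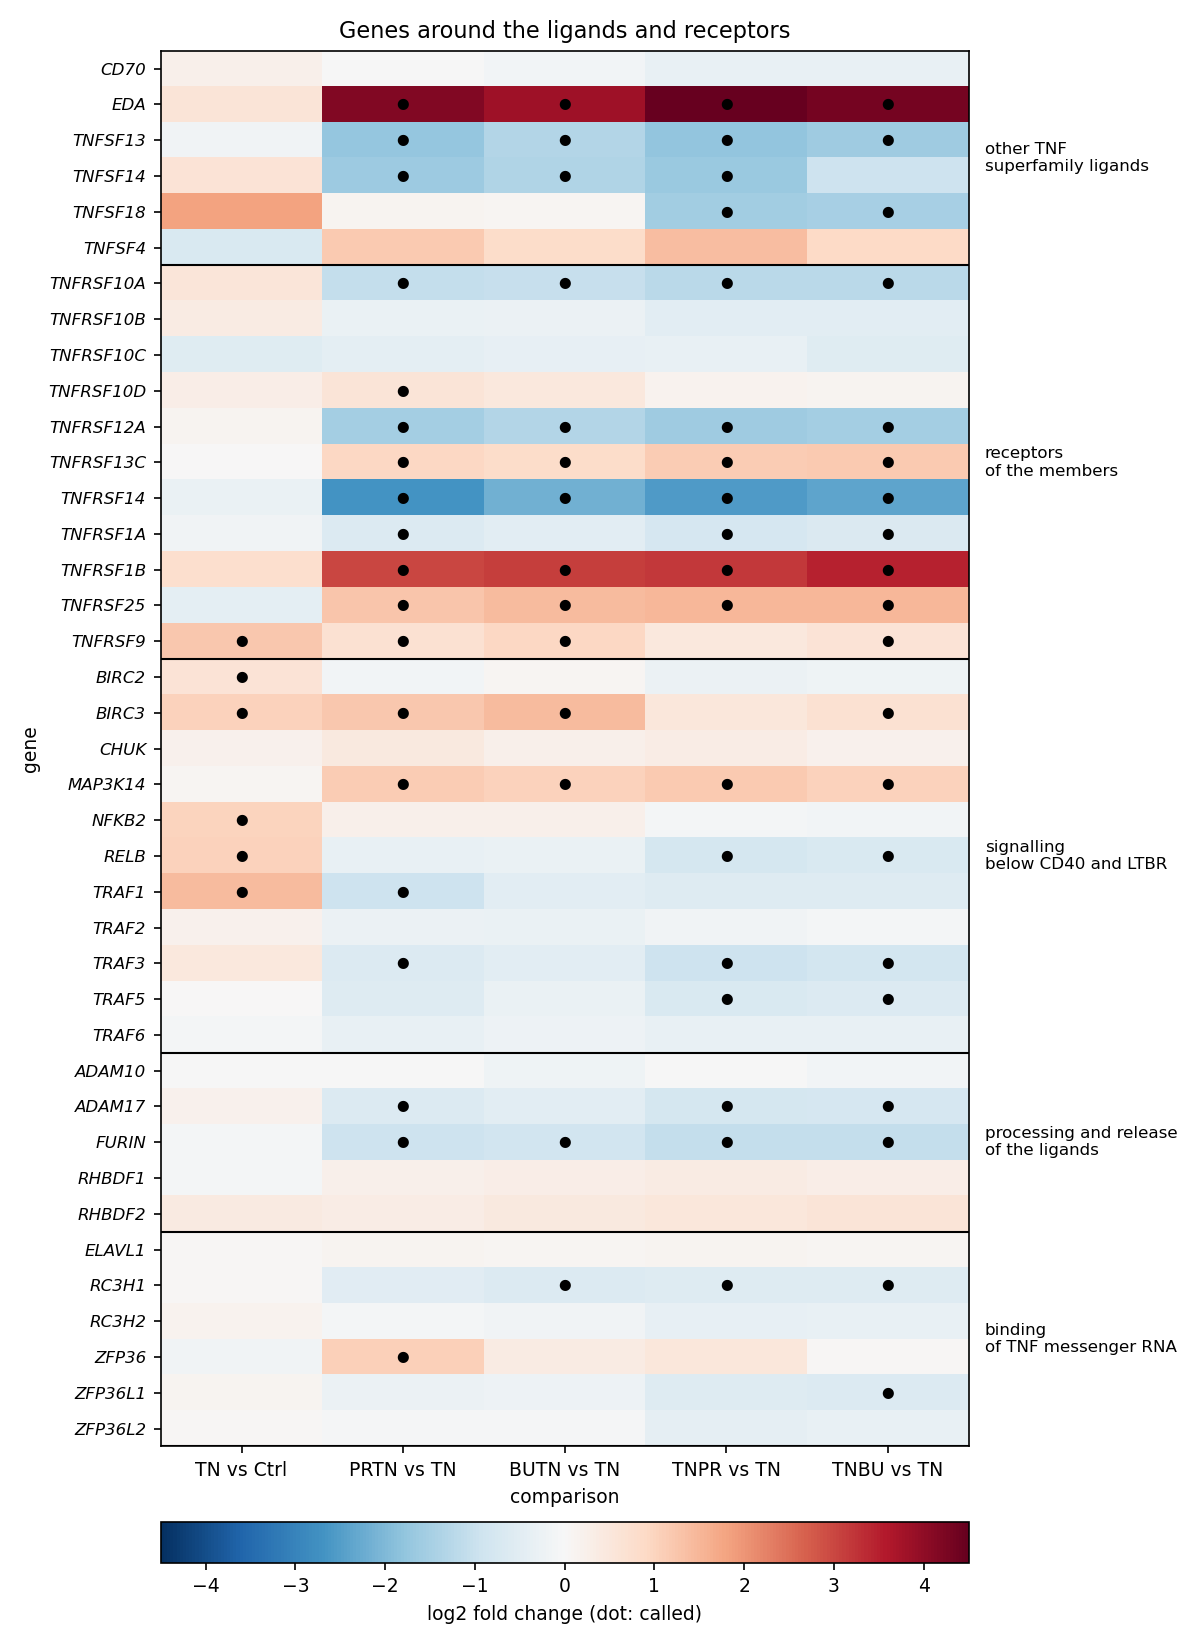
Log2 fold change (colour) of 39 genes of the 5 lists in TN against Ctrl and in each SCFA group against TN; dots mark called genes, and 4 genes with under 10 counts in every library or no counts in a group are left out. EDA (3.83 to 4.47) and TNFRSF1B (2.99 to 3.46) are the highest rows and TNFRSF14 the lowest in the SCFA columns.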

How the data were processed

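RNA of 12 HK2 libraries was prepared with a stranded polyA-selecting kit and sequenced by the authors. Per the labels and the study's methods, reads were checked with FastQC 0.11.5, aligned with STAR 2.6.1a to GRCh38 and quantified with RSEM (version not given in the sources used here) on GENCODE 26. The authors deposited 1 table of expected counts per library, with 58278 genes each, not normalized. RSEM divides reads that fit several features, and 19.3% of the values were not whole.

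From these, genes with a geometric mean (count + 1, minus 1) of at least 1 over the 12 libraries were kept (24342 of 58278), scaled by TMM and fitted with limma 3.58.1 (voom, 6 group means, no covariate) in R 4.3.3. P values were adjusted by Benjamini-Hochberg over all tested genes, and a call needed a fold over 1.5 and an adjusted P under 0.05, as in the study's methods. Contrasts compared TN with Ctrl, each SCFA group with TN and with Ctrl, the SCFAs with each other, the timings, and their interaction. Alternatives were edgeR 4.0.16, DESeq2 1.42.0 (counts rounded), other scalings and filters, a fold over 2, fits of the compared groups only, a replicate block and leaving out each library. Depth was 27269986 to 33851130 counts per library, so a share at the floor of 3 counts was 0.0886 to 0.110 CPM. With 2 replicates a group, P values rest on a spread shared over groups and genes. The labels call the replicates biological.

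The members, gene lists and motifs were chosen with earlier results of these data known. Named genes were the 10 members, the 3 genes most like TNF, LTB and CD40, and up to 4 called genes of each list with the largest changes; RC3H1, ZFP36L1, TNFRSF13B, RELB, BIRC2, TRAF1, TRAF3, TRAF5, ADAM17, ZFP36, TNFRSF1A, TNFRSF10A, TNFRSF12A, TNFRSF25, LST1, NCR3 and NFKBIL1 were named after their values were seen. TNFSF14, TNFRSF10B, TNFRSF10C and TNFRSF10D were also reported after their values were seen. Positions and transcript lengths are from GENCODE 44 and promoters from RefSeq (GRCh38.p14). Only the limma-voom fit of TN against Ctrl was tested on simulated data.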

Additional observations from a re-analysis of the deposited data

How the results depend on the processing

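With 2 libraries a group and at most 12 counts in any library, LTA, TNFSF12 and TNFSF13B were limited by depth. TNF and TNFSF9 kept their higher calls, and LTB, TNFSF10, CD40 and LTBR their lower calls, in all 4 comparisons of an SCFA group with TN under each alternative run. In TN against Ctrl, 2 members were called, but 4 when only the groups compared were fitted (TNF and TNFSF10 added) and 1 with a fold over 2 (CD40 dropped). TNF was also called there in edgeR and DESeq2, and TNFSF10 with a weaker filter on low counts. The causes of the changes below were not tested. Of the timing comparisons, TNPR against PRTN had 1 member called, 0 in DESeq2 (which gave LTB no adjusted P) and 0 with only those groups fitted, and 0 to 2 with each library left out. TNBU against BUTN had 1 called, 0 with only those groups fitted, and 1 to 2 with each library left out. Of all genes, TN against Ctrl called 316, but 91 with only those groups fitted, 107 with a fold over 2 and 177, 210 and 187 without Ctrl replicate 1, Ctrl replicate 2 and TN replicate 1. PRTN against BUTN called 41 genes, but 178 with only those groups fitted, 75 with a weaker filter, 27 in DESeq2, 6 with a fold over 2 and 3 to 20 with each library left out. TNPR against TNBU called 2, but 13 with the weaker filter and 9 in DESeq2. TNPR against PRTN called 39, but 25 in edgeR, 7 with only those groups fitted, 23 with a fold over 2, and 8, 76 and 18 without PRTN replicate 1, TNPR replicate 1 and TNPR replicate 2. TNBU against BUTN called 65, but 4 with only those groups fitted, 30 with a fold over 2, 18 without either BUTN library and 317 without TNBU replicate 1. The interaction called 0 genes, and 10 without PRTN replicate 2. Scaling by library size alone moved the share of calls that were higher from 58.9% to 44.3% in TN against Ctrl, from 60.9% to 71.2% in BUTN, 59.6% to 69.8% in TNPR and 60.2% to 72.0% in TNBU against TN, and from 35.4% to 45.9% in TNBU against BUTN.

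Sign changes were limited to differences that were not called. LTA in PRTN against Ctrl became 0.0701 with library size alone and ranged from -0.38 to 0.31 with each library left out, and LTA in BUTN against Ctrl ranged from -0.12 to 0.57. In TN against Ctrl, LTBR ranged from -0.10 to 0.0209 and TNFSF15 from -0.71 to 1.56. TNFSF15 had at most 2 counts in these libraries, too few for its fitted fold to be read. In TNPR against TNBU the ranges were -0.27 to 0.89 for TNF, -0.25 to 0.54 for LTB, -0.0023 to 0.32 for TNFSF9, -0.47 to 0.75 for TNFSF10 and -0.15 to 0.0025 for LTBR. TNFSF10 in TNPR against PRTN ranged from -0.88 to 0.33.

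The correlation of same-numbered deviations, over all tested genes without weights, was -0.0334 to 0.0670 over 15 pairs of groups. Counting error in genes with few counts lowers its size, so it could not decide whether the replicate numbers pair the libraries. With the replicate number as a block, the members called remained 2 in TN against Ctrl and 1 in each timing comparison. Over all genes the block moved PRTN against BUTN from 41 to 27.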
